A study of Homo sapiens with 16 samples.

Results

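Genes of extracellular proteolysis were followed in human kidney organoids: the matrix metalloproteinases MMP2, MMP7, MMP9 and MMP14, the tissue inhibitors TIMP1, TIMP2 and TIMP3, the secreted protease ADAMTS1, and the plasminogen activators PLAT and PLAU. They were 10 of the 20121, 27650 and 21093 genes in the 3 bulk RNA-seq tables and of the 36601 genes in the single-cell matrices, and every table listed all 10. The genes were picked by name with values of these data in view, since MMP7 was known to rise with culture day and MMP9 with TNFα. The day values of MMP7 and the TNFα values of MMP9 are therefore described without a test, and each comparison counts the other 9 genes.

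All organoids came from 1 human embryonic stem cell line, UM77-2. Set 1 held 1 bulk library each from day 21, day 25 and day 29 of culture, and set 2 held 2 per day, named Org1 and Org2, from organoids refed daily. The TNF set held 4 bulk libraries from day 25 organoids, vehicle control (VC) and TNFα at 5 ng/ml, each at 24 h and at 48 h, with 1 library per group. Single-cell libraries from day 24 organoids, 1 untreated by TNFα (Ctrl) and 1 after 24 h of TNFα at 5 ng/ml (TNF), were made with the 10x 3′ v3 kit after whole wells were dissociated with a cold active protease, whereas the bulk libraries came from isolated spheroids. The labels do not say whether Org1 and Org2 were separate differentiations, so p-values measure only the spread between these libraries, which may be technical.

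Matrix metalloproteinases are zinc-dependent enzymes that are made as inactive precursors and cut collagens, laminins and other proteins outside the cell. MMP14 is anchored in the cell membrane and activates the MMP2 precursor with the help of TIMP2, MMP2 and MMP9 are the gelatinases, and MMP7 (matrilysin) is a small secreted enzyme of epithelia that is known as a marker of injured kidney tubules and of kidney fibrosis. TIMPs block the active enzymes, and PLAT (tissue-type) and PLAU (urokinase-type) convert plasminogen to plasmin, a further protease. RNA levels do not report the active enzyme, which also depends on activation and inhibition.

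The promoters of a gene that moved in both settings, MMP7, and of one whose level stayed within a narrow range, MMP14, are shown to give the sequence context. Each line gives the 250 bases before the annotated start site, on the gene's own strand, from RefSeq on GRCh38.p14, at chr11:102530748-102530997 (minus strand) for MMP7 and chr14:22836335-22836584 (plus strand) for MMP14. Capitals mark matches, on either strand, to 6 motifs. The AP-1 motif, read by Fos and Jun proteins, was searched as TGANTCA. For Ets proteins the PEA3 letters AGGAAG were used. The TCF motif of Wnt signalling was searched as CTTTGA. GC boxes, known for binding Sp1, were searched as GGGCGG. The box that places the start of transcription was searched as TATAAA. The last was an NF-kB consensus. None of the matches shown overlapped another.
MMP7: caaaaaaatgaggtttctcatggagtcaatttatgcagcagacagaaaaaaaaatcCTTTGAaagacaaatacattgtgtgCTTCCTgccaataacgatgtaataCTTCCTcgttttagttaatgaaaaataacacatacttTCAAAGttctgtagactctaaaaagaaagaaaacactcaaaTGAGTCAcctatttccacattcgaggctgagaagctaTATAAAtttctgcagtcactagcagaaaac
MMP14: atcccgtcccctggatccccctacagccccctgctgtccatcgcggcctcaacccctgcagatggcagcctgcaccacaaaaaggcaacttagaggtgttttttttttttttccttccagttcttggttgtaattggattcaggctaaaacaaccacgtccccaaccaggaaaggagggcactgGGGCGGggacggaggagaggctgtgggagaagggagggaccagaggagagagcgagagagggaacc
The MMP7 window was 33.6% G or C and held 1 AP-1 match ending 61 bases before the start, 2 PEA3 matches, 2 TCF matches and 1 TATA match ending 25 bases before the start. The MMP14 window was 56.8% G or C and held 1 GC box match. Among 34941 windows of this length, 6.59% held the AP-1 letters, 28.7% the PEA3 letters, 11.2% the TCF letters, 42.5% the GC box, 10.8% the TATA letters and 9.95% the NF-kB consensus, which was absent from both windows. A match is a description of the letters and not of binding. The RefSeq table also held TIMP1, TIMP3 and PLAU, and not MMP2, MMP9, TIMP2, ADAMTS1 or PLAT. In the GRCh38 annotation MMP7 (ENSG00000137673) spans chr11:102520508-102530750 on the minus strand, MMP9 (ENSG00000100985) chr20:46008908-46016561 on the plus strand, and MMP14 (ENSG00000157227) chr14:22836560-22849041 on the plus strand. The MMP7 and MMP14 spans begin before the RefSeq start sites, so the last bases of both windows lie inside them.

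Bulk libraries held 25508651 to 29408687 reads in set 1, 19073609 to 30282025 in set 2 and 49948198 to 59246286 in the TNF set. Values are log2(CPM + 1), where CPM is a gene's reads over the library's reads in units of 1e+06. In set 2 from day 21 to day 29, 8 of 10 stromal, 9 of 10 neuronal, 6 of 9 listed muscle and 5 of 10 neural progenitor or glial marker genes were higher and none was lower, 6 of 9 listed mural markers were higher and 1 lower, 7 of 10 proximal tubule and 6 of 10 podocyte markers were lower and none was higher, and the summed stromal level went from 4545 to 5151 CPM to 14560 to 18070 CPM. Under TNFα, all 10 proximal tubule and all 10 podocyte markers were lower, with summed levels of 1142 to 1147 against 514 to 575 CPM and of 6935 to 7439 against 3360 to 4511 CPM. Of 9 listed mural markers 6 were higher and 1 lower, of 10 neural progenitor or glial markers 6 and 2, and of 10 stromal markers 5 and 2. Of 8 endothelial markers 6 were lower and none was higher. Over all genes, 10.0% were called higher and 8.33% lower from day 21 to day 29, and 8.42% higher and 10.8% lower under TNFα. Of 8 leukocyte markers, 4 were listed in set 2, at 2.86 to 7.10 CPM in sum, and 2 in the TNF set, at 6.19 to 13.3 CPM. The part of these shifts in the values below was not tested, and in bulk RNA fewer cells of a type and less RNA per cell cannot be told apart.

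The first comparison asked how the genes moved with days in culture. The matrilysin MMP7 moved most among the 10. In set 2 its log2(CPM + 1) was 3.53 and 2.89 on day 21, 5.59 and 5.30 on day 25, and 7.19 and 7.84 on day 29, and in set 1 it was 4.43, 6.15 and 7.66 on the same days. No library of a later day overlapped an earlier one within a set. From day 21 to day 29 the mean CPM differed 21.9-fold in set 2 and 9.77-fold in set 1. These values chose the gene and carry no test.

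Both gelatinases were higher on day 29 than on day 21. MMP2 had values of 5.86 and 5.59 on day 21, 6.89 and 6.96 on day 25 and 7.38 and 7.61 on day 29, with no overlap between days. Its log2 fold change between day 29 and day 21 was 1.77 (SE 0.11, limma adjusted p = 9.88e-05), and set 1 went 6.31, 7.38, 7.72. MMP9 rested on few reads, with 13 and 14 reads on day 21, 34 and 36 on day 25 and 57 and 115 on day 29. Its log2 values were 0.70 and 0.61, 1.49 and 1.40, and 1.54 and 2.37, so day 21 lay below both later days, and the second day 29 library stood above all others. The change from day 21 to day 29 was 1.30 (SE 0.25, limma adjusted p = 0.010), and without the first or the second day 21 library the adjusted p was 0.062 and 0.077. Set 1 went 1.25, 1.62, 2.34. Part of the MMP9 exons lies opposite SLC12A5-AS1, and the sources used here do not give whether counting was by strand, so reads of the 2 genes may not be separated.

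The membrane-anchored activator MMP14 stayed within a narrow range, with set 2 values of 8.53 and 8.66 on day 21, 8.62 and 8.75 on day 25 and 8.63 and 8.63 on day 29. The days overlapped, and the change from day 21 to day 29 was 0.03 (limma adjusted p = 0.843). In set 1 MMP14 went 8.17, 8.36, 8.45, and its CPM was 1.22-fold higher on day 29 than on day 21. ADAMTS1, which cuts proteoglycans such as versican and aggrecan, ranged from 8.29 to 8.52 over all 6 libraries. Both day 21 values, 8.52 and 8.46, lay above those of day 25 (8.39 and 8.29) and of day 29 (8.36 and 8.43). Only the 2 later days overlapped. The change from day 21 to day 29 was −0.095 and was not called (limma adjusted p = 0.438).

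The 3 inhibitors were called higher by day 29. TIMP2, the inhibitor that takes part in MMP2 activation, had values of 6.62 and 6.58 on day 21, 7.20 and 7.24 on day 25 and 7.52 and 7.67 on day 29. The days did not overlap, and the change from day 21 to day 29 was 1.0 (SE 0.072, limma adjusted p = 0.000158). TIMP3, which binds to the matrix itself, stood at 6.58 and 6.56, then 7.01 and 6.97, then 7.14 and 7.19, a change of 0.60 (SE 0.062, limma adjusted p = 0.000614). TIMP1, a secreted inhibitor that is broadly induced in injury, moved least of the 3, from 5.66 and 5.55 through 5.75 and 5.83 to 5.90 and 5.93. Its change of 0.31 (SE 0.072, limma adjusted p = 0.0221) was not called when values were centred on each library's median (adjusted p = 0.078) or when the variance trend was left out (adjusted p = 0.057), nor without the first (0.065) or second (0.16) day 21 or the second day 29 library (0.075). In set 1 the change between days was 1.54-fold for TIMP2, 1.63-fold for TIMP3 and 1.24-fold for TIMP1.

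The plasminogen activators differed from each other. PLAT had values of 6.92 and 6.89 on day 21, 7.92 and 7.83 on day 25 and 8.08 and 8.06 on day 29, and its change of 1.17 (SE 0.066) had a limma adjusted p of 8.39e-05. Most of that difference was already present on day 25, at 0.97 above day 21 (adjusted p = 0.000963). PLAU was far lower, with 3.55 and 3.49 on day 21, 3.37 and 3.16 on day 25 and 3.08 and 3.17 on day 29. Day 29 lay below day 21 without overlap, but the change of −0.40 was not called (limma adjusted p = 0.0748), whereas it was called lower with low values filtered out (0.047), with median centring (0.020) and without the variance trend (0.046). In set 1, PLAT was 1.61-fold higher on day 29 than on day 21 and PLAU stood at 0.852 of its day 21 level.

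**Figure D1:**
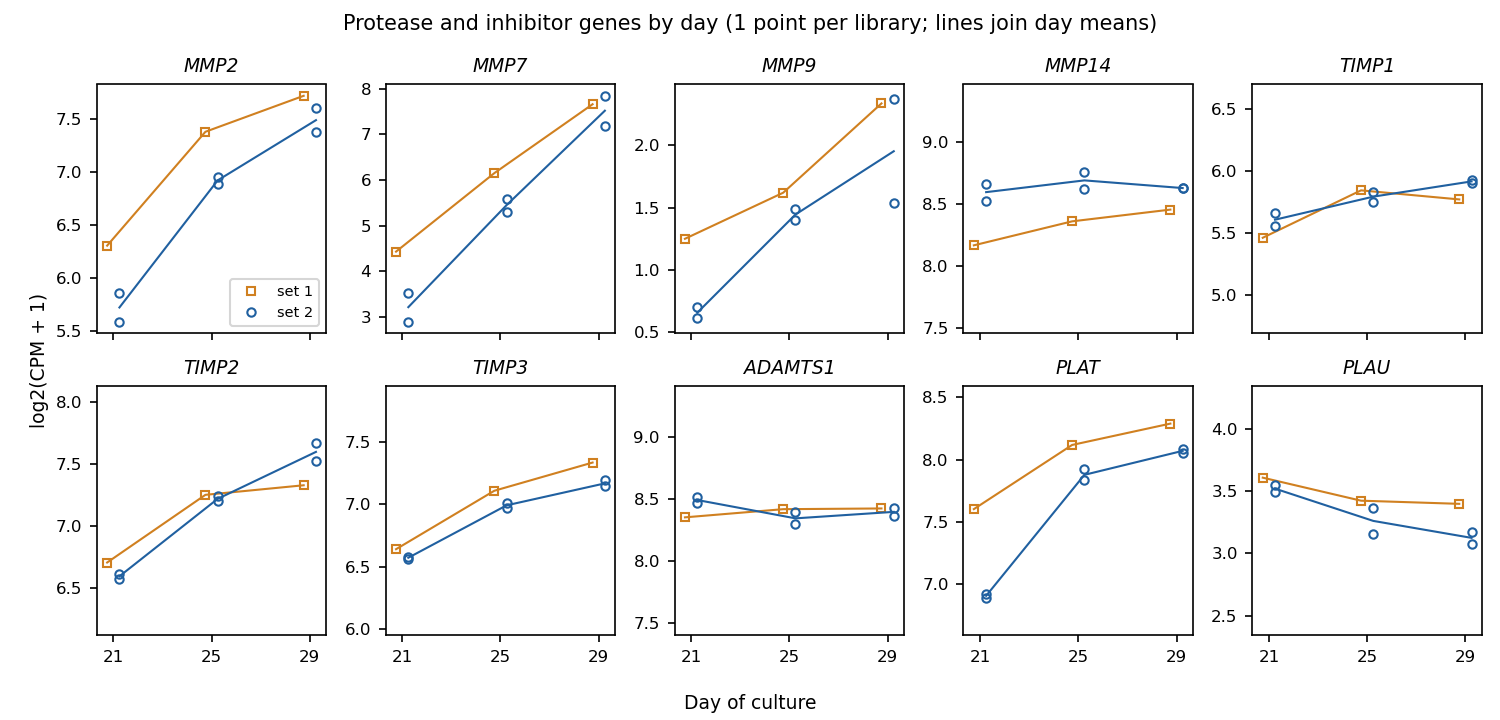
Level of each of the 10 genes, as log2(CPM + 1), on days 21, 25 and 29 in the 2 sets of bulk libraries; each point is 1 library. MMP7 and MMP2 climbed over the days in both sets, while MMP14 and ADAMTS1 stayed within 8.17 to 8.75.

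From day 21 to day 29, 6 of the 9 genes tested (all but MMP14, ADAMTS1 and PLAU) were called, all higher, where 18.4% of all 27650 genes were called, 10.0% higher and 8.33% lower. From day 21 to day 25, 4 of 9 were called higher (MMP2, TIMP2, TIMP3 and PLAT), where 5.37% of all genes were called, and this number was 2 without the second day 21 or the second day 25 library. MMP2 and PLAT stayed called without each of the 6 libraries, whereas TIMP3 was not called without any one of the 4 libraries compared, and TIMP2 not without the second library of either day. Without any one of these 4 libraries fewer of all genes were called too. MMP9 was called when either day 29 library was left out (adjusted p = 0.017 and 0.014). From day 25 to day 29, 2 of 9 were called higher, where 2.08% of all genes were called. These were MMP2, with a change of 0.57 (limma adjusted p = 0.0460), and TIMP2, with 0.38 (limma adjusted p = 0.0460). Neither was called without the variance trend, where 0.756% of all genes were called, or without any one library other than the first of day 29. Fewer of all genes were called in each of these fits too, so the lost calls are not particular to MMP2 and TIMP2. Without the first day 29 library MMP9 was called too, and so were more of all genes. The first 2 comparisons share the day 21 libraries, and the last shares its libraries with both.

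Among other genes of the same families, 5 of 12 listed metalloproteinases were higher on day 29 than on day 21 and 1 was lower. Of all genes 10.0% were called higher and 8.33% lower. The metalloproteinases had a median log2 change of 0.37 against −0.019 over all genes. MMP16, a membrane-anchored enzyme, went from 5.31 and 4.98 to 6.68 and 6.69, and MMP11 (stromelysin-3) from 4.98 and 4.92 to 5.95 and 6.04. The one that was lower was MMP23B, from 3.78 and 3.94 to 2.75 and 2.57. Of 18 ADAMTS genes, 9 were higher and 3 lower, with a median of 0.47, led by the aggrecanase ADAMTS5 (change 1.77) and by ADAMTS6 (1.76). ADAMTS20 had the largest change among the lower ones (−0.88). The plasma protease inhibitor A2M had the largest change of all the listed genes, from 3.19 and 2.66 to 6.12 and 6.75 (change 3.51, limma adjusted p = 0.000105), and was the only 1 of 3 further inhibitors to be called.

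Among further genes of plasminogen activation, S100A10, a plasminogen receptor subunit, went from 4.42 and 4.18 on day 21 to 5.49 and 5.34 on day 29 (change 1.11, limma adjusted p = 0.00117). SERPINF2, which inhibits plasmin, went from 6.38 and 6.14 to 5.74 and 5.86 (change −0.46, limma adjusted p = 0.0111). Of 9 ADAM sheddases, ADAM33 (change 1.8) and ADAM19 (1.24) were higher and none was lower, a share near the 18.4% of all genes. Of 7 genes that answer TNFα, 5 were higher on day 29, where 10.0% of all genes were. Among them were CCL2 (change 1.64) and ICAM1 (1.56), without TNFα having been added.

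The genes with the set 2 course most like that of MMP7, by the root mean square difference of values centred on each gene's mean over 6 libraries, were THBS2 (0.12), ELN (0.23), HGF (0.29), MGP (0.32) and OGN (0.35), on the log2 scale. In the Ctrl single-cell library these 5 were highest in the stromal-like class, for example MGP at 230 CPM against 7.58 CPM in the proximal tubule-like class, whereas MMP7 stood at 2.97 and 298 CPM there. Genes with a like course in bulk thus differed in the class of their highest level in the Ctrl library. That library came from whole wells and from another day than the bulk libraries, which came from isolated spheroids. Which cells held the MMP7 RNA in the bulk libraries was not tested.

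Levels of different genes were compared per kilobase of exon. On day 21 of set 2 the order of mean CPM per kilobase ran MMP14 (83.5), ADAMTS1 (49.1), TIMP1 (33.0), TIMP3 (20.5), TIMP2 (15.4), PLAT (15.3), MMP2 (11.1), MMP7 (3.67), PLAU (3.55) and MMP9 (0.246). The libraries of TIMP2 and PLAT overlapped, as did those of MMP7 and PLAU. On day 29 MMP14 (85.3) and MMP7 (80.5) overlapped at the top, followed by ADAMTS1 (45.9), by TIMP1 (41.0) and MMP2 (38.2), which overlapped, by PLAT (34.5) and by TIMP3 (31.1) and TIMP2 (31.1), which also overlapped, while PLAU (2.62) and MMP9 (1.30) were last. The proteases of low level on day 21 thus parted, with MMP7 and MMP2 moving up the order and PLAU and MMP9 staying at its end.

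**Figure D2:**
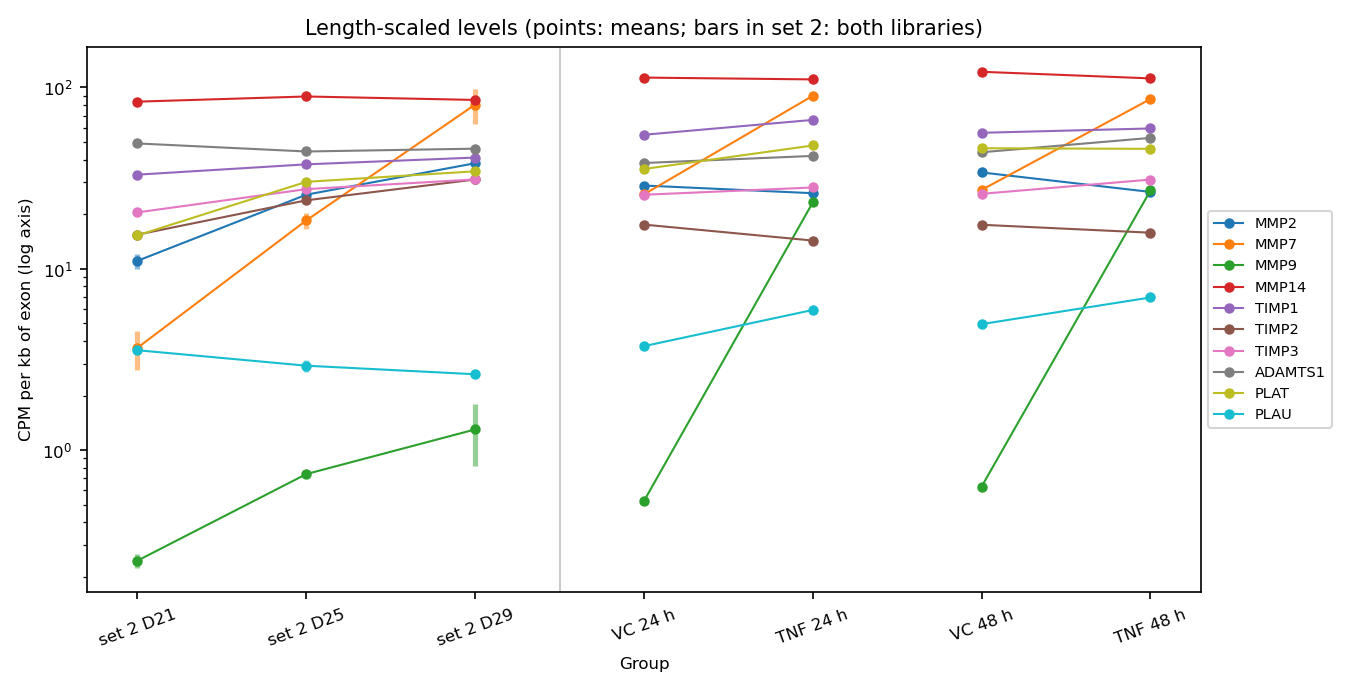
Mean CPM per kilobase of exon on a log axis for the 10 genes in the groups of set 2 and of the TNF set. Points are group means, bars in set 2 span both libraries, and lines in the TNF set join the VC and TNFα library of 1 time. MMP7 reached the level of MMP14 on day 29 of set 2 and passed most other genes under TNFα, and MMP9 was lowest except after TNFα.

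The next comparison asked what TNFα did to the same genes, with the 24 h and 48 h pairs standing in for replicates. No group of the TNF set was repeated. Its SEs and p-values therefore rest on how the responses at 24 h and 48 h differ and on the variances of all genes. They do not measure a spread between replicates of the TNFα treatment. The collagen IV-cutting gelatinase MMP9 had 66 reads in the 24 h VC library and 2852 after TNFα, and 73 against 3743 at 48 h. On the log2 scale these were 1.15 and 5.79, then 1.31 and 6.0, and the CPM differed 44.3-fold and 42.9-fold. These values chose the gene and carry no test. The same-set genes most like it over 4 libraries were IL4I1 (root mean square difference 0.17), IL32 (0.26), CCL2 (0.37), VCAM1 (0.37) and CXCL1 (0.39).

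MMP7, picked with its rise by day in view, was higher under TNFα too, with 5.92 in VC against 7.71 at 24 h and 6.0 against 7.65 at 48 h. Earlier results of these data were known at the choice, so whether its TNFα values took part is not settled. Both TNFα libraries lay above both VC libraries, by 3.50-fold and 3.17-fold in CPM. The log2 change was 1.72 (SE 0.065, limma adjusted p = 2.84e-12), and MMP7 was the only gene of the 9 to be called without the time term. Of the plasminogen activators only PLAU was called higher, going from 3.59 to 4.21 at 24 h and from 3.96 to 4.43 at 48 h, a change of 0.54 (SE 0.095, limma adjusted p = 0.000458). Its reads may not be separable from those of C10orf55, which overlaps it on the opposite strand.

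The remaining calls were small. ADAMTS1 went from 8.13 to 8.26 and from 8.33 to 8.59 (change 0.20, adjusted p = 0.0343), and TIMP3 from 6.89 to 7.02 and from 6.91 to 7.17 (0.20, adjusted p = 0.0391). MMP2 went the other way, from 7.09 to 6.95 and from 7.33 to 6.98 (−0.25, adjusted p = 0.0136), as did TIMP2, from 6.78 to 6.49 and from 6.78 to 6.63 (−0.22, adjusted p = 0.0267). TIMP1 went from 6.33 to 6.60 and from 6.36 to 6.44 (0.17, adjusted p = 0.0892) and was not called. PLAT went from 8.11 to 8.54 at 24 h but from 8.49 to 8.48 at 48 h (0.21, adjusted p = 0.0836). MMP14, at 9.04 against 9.0 and 9.14 against 9.02, was not called either (adjusted p = 0.463). All of these adjusted p-values are from limma.

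Of the 9 genes tested, 6 were called, 4 higher (MMP7, PLAU, ADAMTS1 and TIMP3) and 2 lower (MMP2 and TIMP2), where 19.3% of all 21093 genes were called, 8.42% higher and 10.8% lower. With 1 residual degree of freedom this number moved with the fit. It was 3 with DESeq2, where 10.4% of all genes were called, and 2 without the variance trend, where 15.2% were. It was 1 without the time term (6.21% of all genes), and 8 with edgeR (21.1%) or with median centring (21.7%). Fits with a library left out also had no time term, so the part of a single library cannot be told apart. The difference between the 24 h and 48 h responses could not be tested, with 1 library per group.

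**Figure D3:**
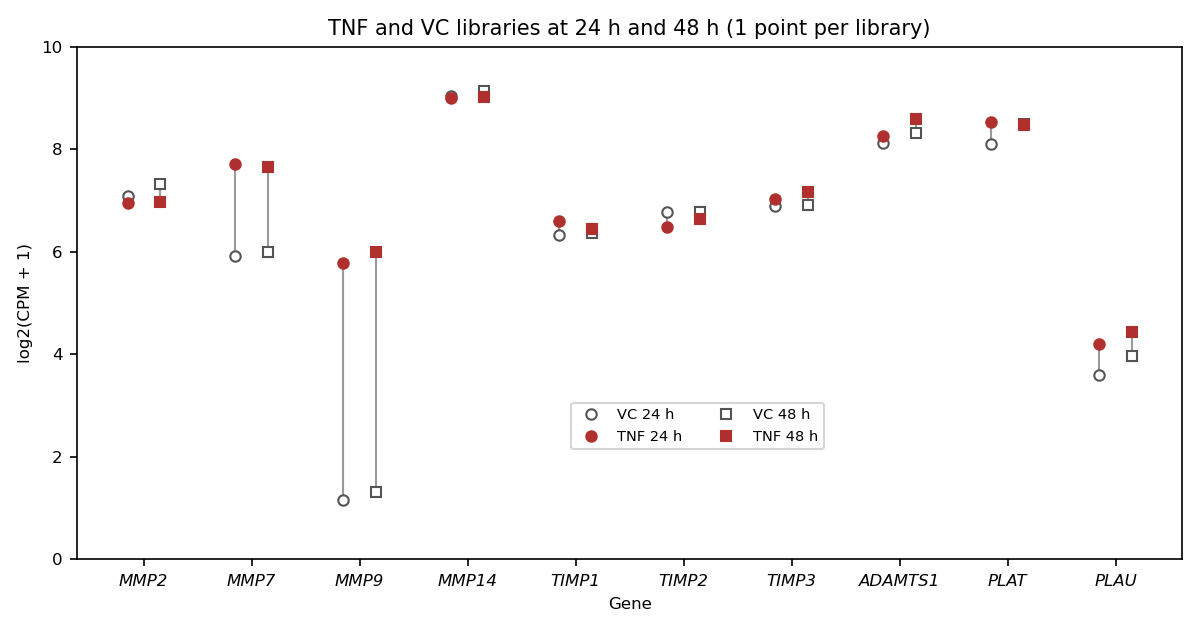
Level of each of the 10 genes, as log2(CPM + 1), in the VC and TNFα libraries at 24 h and 48 h; each point is 1 library. MMP9 and MMP7 rise at both times, whereas MMP2 and TIMP2 lie slightly lower after TNFα.

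Among the related genes, TNFα went with calls in both directions, where 8.42% of all genes were called higher and 10.8% lower. Of 9 further metalloproteinases 2 were higher, MMP25 (0.32 to 1.39 at 24 h and 0.20 to 0.92 at 48 h) and MMP19 (change 0.48), and MMP23B was lower (−0.34). Of 18 ADAMTS genes 3 were higher and 5 lower. ADAMTS18 went from 1.84 to 4.55 at 24 h and from 2.24 to 4.78 at 48 h (change 2.63, limma adjusted p = 8.88e-12). ADAMTS15 went from 7.52 to 6.89 and from 7.74 to 7.06 (change −0.66, limma adjusted p = 3.80e-07), and ADAMTS8 (−0.60), ADAMTS16 (−0.55) and ADAMTS7 (−0.44) were lower as well.

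Among further genes of plasminogen activation, the inhibitor SERPINE2 (change 0.29) was higher, and SERPINF2 (−0.42), ANXA2 (−0.25) and S100A10 (−0.25) were lower. ADAM8, a sheddase known from leukocytes, went from 3.64 to 4.48 and from 3.40 to 4.48, and ADAM19 was higher too (0.50), while ADAM28 (−0.59) and ADAM33 (−0.44) were lower. A2M went from 5.08 to 5.79 at 24 h and from 4.82 to 4.94 at 48 h (0.41). These calls moved with the fit too. ADAMTS18 and ADAM8 were called in the same direction in 11 of 11 alternatives and ADAMTS15 in 10, but MMP19 in 3 of 10, ANXA2 and S100A10 in 4 of 11, and A2M and MMP23B in 5 of 11, with A2M at −0.012 in one of them. Each of the 6 listed response genes was higher, with VCAM1, an adhesion molecule, going from 4.34 to 8.95 and from 4.87 to 8.54.

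On the per-kilobase scale MMP7 went from 25.7 to 89.9 CPM per kilobase at 24 h and from 27.2 to 86.3 at 48 h, and so from the 6th to the 2nd place among the 10, behind MMP14, which was first in all 4 libraries. MMP9 went from 0.524 to 23.2 and from 0.630 to 27.0, and left the last place for the 8th and the 7th.

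The single-cell libraries showed which cells held the RNA. The Ctrl library gave 11906 cells with more than 500 genes and a median of 6358.5 unique molecular identifiers (UMIs) per cell, and the TNF library 23160 cells with a median of 2599. They held 82 barcodes in common, and leaving these cells out moved MMP7 in Ctrl proximal tubule-like cells from 298 to 299 CPM and MMP9 in TNF podocyte-like cells from 47.5 to 47.4 CPM. Cells were clustered without the protease and inhibitor genes and named by markers, such as NPHS1 and PODXL for podocyte-like and LRP2 and CUBN for proximal tubule-like cells. The proximal tubule-like class also held 4 distal tubule markers, and 2373 Ctrl and 4424 TNF cells stayed unnamed. Levels are CPM of the UMIs of a class with exact 95% Poisson intervals for counting error alone. No test was possible, since each condition had 1 library. The summed markers of a class also differed between the libraries. A ratio within a class therefore does not separate a change within cells from a change in the make-up of the class.

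MMP7 was concentrated in the proximal tubule-like class. In Ctrl it stood there at 298 CPM (290 to 306), with 5700 UMIs that made up 86.0% of all MMP7 UMIs, against 3.78 CPM (2.84 to 4.93) in podocyte-like and 2.97 CPM (2.13 to 4.03) in stromal-like cells. Within the class the RNA was uneven, with a UMI in 302 of 1273 cells (23.7%, median depth 9213 UMIs), and the 10 highest cells held 36.8% of the class's MMP7 UMIs, up to 499 in 1 cell. The share with a UMI in stromal-like cells was 1.07% at a median depth of 4895 UMIs. With a finer clustering that split the class, MMP7 was at 395 CPM (384 to 406) in proximal tubule-like and 120 CPM (112 to 128) in distal tubule-like cells. The proliferating-like class stood at 68.1 CPM, a value that came from 9 of 528 cells, and 131 of its 366 UMIs were in 1 cell. The share of the proximal tubule-like class depended on the clustering. With doublets left out, by a chosen cut on a doublet score, it held 3978 of the 6061 Ctrl MMP7 UMIs. Unnamed cells then held 1658, at 118 CPM against 16.7 CPM in the main clustering.

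In the TNF library MMP7 was at 181 CPM (174 to 188) in the proximal tubule-like class, 0.607 (95% exact interval 0.579 to 0.635) of the Ctrl value, and at 46.5 against 65.9 CPM over all cells. The bulk libraries at 24 h had gone the other way from these CPM values, 3.50-fold higher. The share of all cells with an MMP7 UMI was higher in the TNF library, though. At 1500 UMIs per cell it was 1.73% in Ctrl and 3.70% in TNF, with 953 shallower Ctrl cells left out. At full depth it was 3.88% and 5.88%. Over all cells, the 10 highest held 31.6% of the MMP7 UMIs in Ctrl and 21.7% in TNF. Cells thinned to 1500 UMIs held an MMP7 UMI in 11.5% (9.76 to 13.4, exact binomial) of 1255 Ctrl and 8.55% (7.60 to 9.59) of 3145 TNF proximal tubule-like cells, with 18 shallower Ctrl cells left out. The class's summed proximal tubule markers went from 582 CPM in Ctrl to 323 CPM in TNF and its distal tubule markers from 1494 to 1034 CPM, while stromal markers in it went from 408 to 991 CPM and podocyte markers from 215 to 605 CPM, and their part in the MMP7 value was not tested. Elsewhere MMP7 moved in both directions. It was at 16.0 CPM in podocyte-like cells of the TNF library against 3.78 CPM in Ctrl and at 29.3 against 9.64 CPM in neuronal-like cells, but at 23.5 against 68.1 CPM in the proliferating-like class. With doublets left out by the score cut and the remaining cells clustered again, the proliferating-like direction reversed, at 23.7 against 1.35 CPM. The other alternative clusterings kept the direction of the main one. Podocyte-like cells were higher in TNF in every clustering, but only at 4.11 against 3.55 CPM with each library clustered alone. In stromal-like cells MMP7 was at 9.15 CPM against 2.97 CPM, a direction that the 4 other clusterings did not share. At a resolution of 0.5 the stromal-like values were 1.11 against 2.51 CPM, without alignment 1.09 against 2.97, with doublets left out 7.96 against 12.4 and with each library clustered alone 1.10 against 12.4. Depth, day, tissue collected and dissociation differed between or within the bulk and single-cell libraries, and their part in this was not tested.

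MMP9 was rare in Ctrl, with 120 UMIs in 49 of 11906 cells, 33 of them in 1 proliferating cell. In the TNF library it had 1479 UMIs, of which 865 (58.5%) were in podocyte-like cells. There the level was 47.5 CPM (44.4 to 50.8) against 0.909 CPM (0.484 to 1.56) in Ctrl, a ratio of 52.3 (30.4 to 98.6). From Ctrl to TNF the podocyte markers of this class went from 9583 to 5004 CPM in sum and its stromal markers from 1199 to 1717 CPM. Their part in the ratio was not tested. Stromal-like cells went from 2.82 to 9.34 CPM, a ratio of 3.31 (2.31 to 4.84). Of the 39 Ctrl stromal-like UMIs, 89.7% were in 10 cells, which the counting interval does not cover. Proximal tubule-like cells went from 2 UMIs to 102, with a ratio of 63.7 (17.2 to 533), which the 2 UMIs leave wide. At 1500 UMIs per cell, 5.06% (4.42 to 5.76) of 4251 TNF podocyte-like cells held an MMP9 UMI, against 0 of 1309 Ctrl cells. That count of 0 allows a share of up to 0.229% with 3 cells taken as its limit, and up to 0.281% by the exact binomial interval. At full depth 8 of 1368 Ctrl podocyte-like cells (0.585%) and 546 of 4251 in the TNF library (12.8%) held an MMP9 UMI, at median depths of 5517 and 2721 UMIs. At 1500 UMIs per cell the TNF share was 1.07% in neuronal-like and 1.69% in proximal tubule-like cells. At full depth these shares were 1.79% and 3.05%. Among the genes with a bulk course like that of MMP9, IL4I1, IL32, CCL2 and CXCL1 were highest in podocyte-like cells of the TNF library too. They stood there at 64.3, 1033, 2327 and 140 CPM. Only VCAM1 was highest in stromal-like cells, at 601 CPM.

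**Figure D4:**
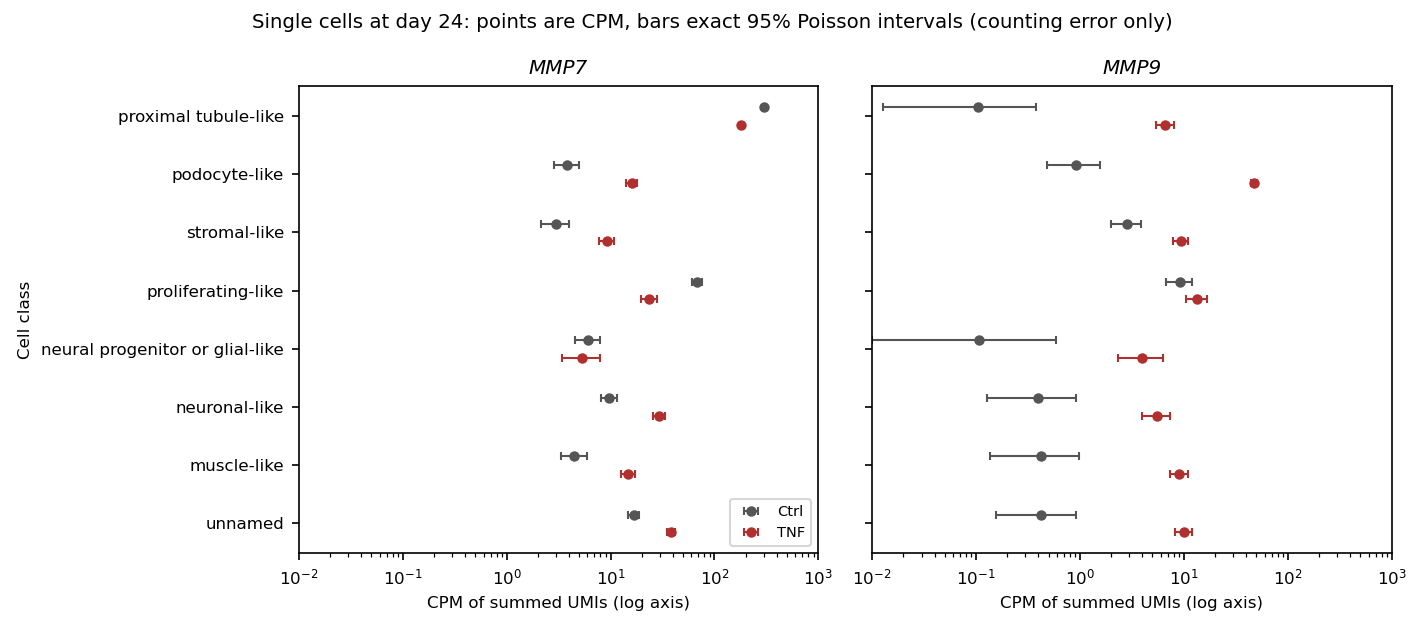
MMP7 and MMP9 levels by cell class, as CPM on a log axis with exact 95% Poisson intervals, in the Ctrl and TNF single-cell libraries. MMP7 is highest in the proximal tubule-like class in both libraries (298 and 181 CPM), and MMP9 is highest in podocyte-like cells of the TNF library (47.5 CPM).

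The other 8 genes were spread over more classes. MMP2 was highest in stromal-like cells, at 123 CPM in Ctrl and 70.5 CPM in TNF, a ratio of 0.574 (0.531 to 0.620), and lowest in proximal tubule-like cells, at 7.79 and 13.8 CPM. The summed stromal markers of the stromal-like class went from 6937 to 4708 CPM, and their part in the ratio was not tested. The MMP2 activator MMP14 was highest in podocyte-like cells, at 79.6 and 56.9 CPM, followed by stromal-like cells, at 57.6 and 42.3 CPM. ADAMTS1 shared the proximal tubule-like class with MMP7, at 118 and 92.9 CPM.

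Of the inhibitors, TIMP1 was the most abundant in UMIs, with its highest level in podocyte-like cells (643 CPM in Ctrl and 510 CPM in TNF) and 402 and 427 CPM in stromal-like cells. TIMP2 was highest in neuronal-like cells, at 120 and 93.2 CPM, though close to the proliferating-like class, at 114 and 92.0 CPM. TIMP3 was highest in the neural progenitor or glial-like class, at 124 and 101 CPM.

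PLAT was highest in stromal-like cells, at 291 CPM in Ctrl and 239 CPM in TNF, a ratio of 0.820 (0.784 to 0.858). In podocyte-like cells it went from 32.2 to 98.0 CPM, a ratio of 3.04 (2.74 to 3.38), and in proximal tubule-like cells from 25.2 to 59.4 CPM, a ratio of 2.36 (2.11 to 2.64). Over all cells it went from 82.3 to 117 CPM. PLAU was at or below 8.26 CPM in every class of both libraries, and over all cells its ratio was 0.911 (0.786 to 1.05), where the bulk libraries were 1.58-fold higher at 24 h. Across classes the TNF library ran flatter than Ctrl for several of these genes, as PLAT in neuronal-like cells (18.7 and 66.7 CPM) and TIMP1 in the same class (66.6 and 180 CPM) show. What part free RNA in the droplets had in this was not tested.

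**Figure D5:**
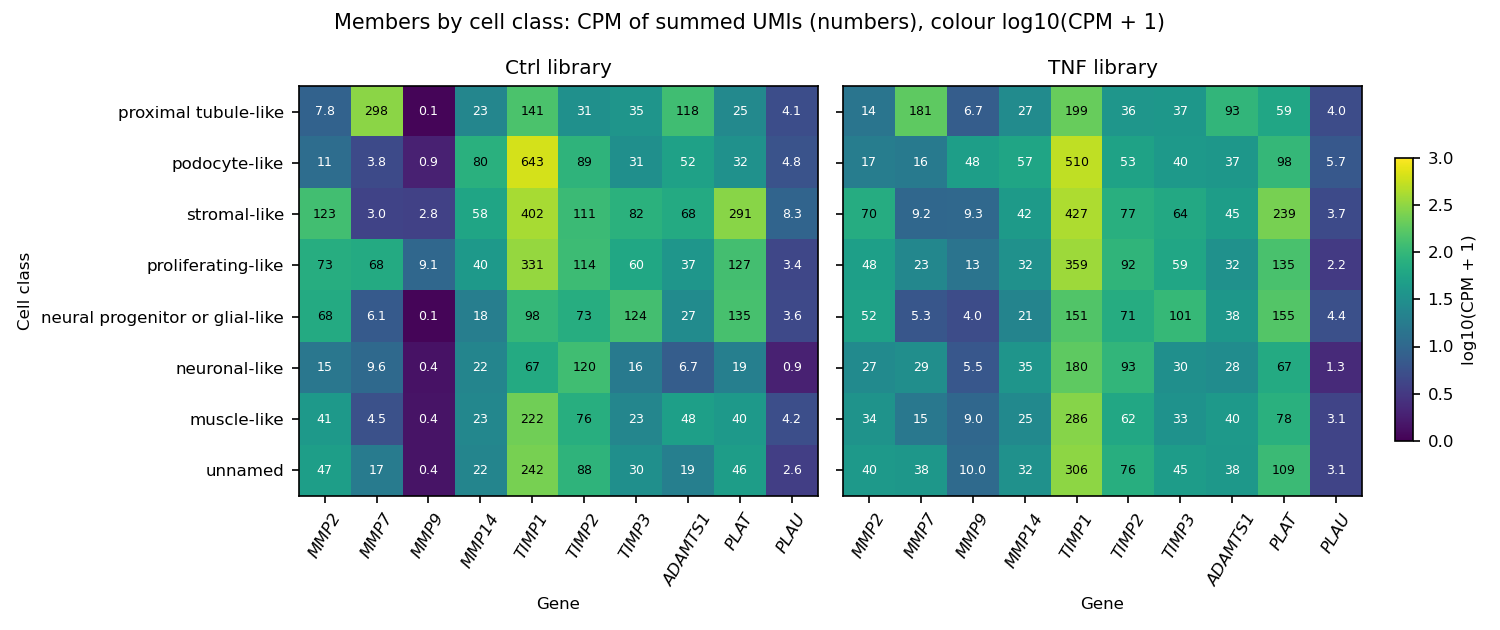
Level of the 10 genes in each cell class of the Ctrl and TNF single-cell libraries, as CPM on a log colour scale. MMP7 and ADAMTS1 are highest in the proximal tubule-like class, MMP14 and TIMP1 in podocyte-like cells, and MMP2 and PLAT in stromal-like cells, in both libraries.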

How the data were processed

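For bulk RNA, the authors aligned reads to GRCh38 with STAR 2.7.8a and counted them with HTSeq, for which the sources differ on the version. The deposited tables hold log2 values of CPM plus 1, made after 0.5 was added to the reads. Whole reads were recovered for 100% of values. Each table was normalized separately.

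The deposited single-cell matrices hold UMI counts per gene and barcode. Cells with more than 500 genes were kept. Variable genes without the listed proteases and inhibitors were used to cluster them with leidenalg 0.10.2 at a resolution of 0.25, after the libraries were aligned. Normalization, components and the alignment, which follows the Harmony method, used routines written for this work. Doublets were kept. A further library, from another day, was not analysed here.

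Bulk genes were tested with limma 3.58.1 (moderated test with a variance trend), with a mean per day in set 2 (3 residual degrees of freedom) and terms for time and TNFα in the TNF set (1 residual degree of freedom). Set 1 has no replicates and no test. P-values were adjusted by Benjamini-Hochberg over all genes and called under 0.05. On simulated data for set 2, limma called 177 of 200 changed genes among 27650 for day 29 against day 21. The changed genes were drawn above a minimum of reads, with changes larger than that of TIMP1 and the same spread for every gene. The share called among genes of few reads or with smaller changes was not tested. Alternatives used edgeR 4.0.16 and DESeq2 1.42.0 on recovered reads, other scalings and filters, and left out libraries. In the TNF set every fit with a library left out also had no time term. Leaving out shared barcodes was chosen after seeing the data. The named genes were the 10 genes, the called genes of each related list with the largest changes (at most 4 per list and direction) and the 5 nearest patterns. Members and lists were chosen with earlier results of these data known. Ratios of UMIs have exact intervals given the sum of the counts. Exon lengths and overlaps came from the GRCh38 annotation. Some results of the related lists are not reported here.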

Additional observations from a re-analysis of the deposited data

How the results depend on the processing

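The number of the 9 genes called from day 21 to day 29 was 6 in all alternatives that kept every library except the low-value filter (7), and 4 to 6 when a library was left out. From day 21 to day 25 it was 4, or 5 with edgeR and DESeq2, and 2 to 5 with a library left out. From day 25 to day 29 it was 2, but 0 without the variance trend and 0 to 3 with a library left out; the cause was not tested. Under TNFα it was 6, 8 with edgeR (21.1% of all genes called) and with median centring (21.7%), and 7 with a pseudocount of 0.1 (20.9%). It was 3 with DESeq2 (10.4%), 2 without the variance trend (15.2%) and 1 without the time term (6.21%). In the alternatives that kept every library, 16.3% to 27.8% of all genes were called from day 21 to day 29. The shares were 3.64% to 10.2% from day 21 to day 25 and 0.756% to 6.04% from day 25 to day 29. Fits of the days with a library left out also moved the calls over all genes. The TNFα fits with a library left out held fewer libraries and also had no time term, so the part of each cannot be told apart. Small values changed sign. MMP14 from day 21 to day 29 was −0.065 with median centring and −0.036 to 0.10 with a library left out (the lowest without the first day 21 library), MMP14 from day 25 to day 29 was −0.13 to 0.0040 with a library left out (the highest without the second day 25 library), and PLAT under TNFα was −0.011 at 48 h alone.

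Org1 and Org2 deviated together with correlations of 0.1425, 0.07533 and 0.2705 between days over 18572 genes. Not every value was over 0.1 and no label ties the numbers to a shared origin, so the numbers were not taken to pair the libraries, though this is not settled. With a replicate block the counts stayed at 6, 4 and 2, while calls over all genes went from 5081 to 6056, from 1486 to 2091 and from 574 to 1118. In the TNF set the time term of the fit sets each TNFα library against the VC library of its time. Over all genes, day 29 against day 25 gave 209 calls without the variance trend, 1336 with edgeR, 1288 with DESeq2, 1233 with median centring and 1122 with low values filtered. TNFα gave 4061 calls, 2184 with DESeq2 and 1310 without the time term. Day 29 against day 21 gave 5081 calls, of which 2778 were higher, and median centring 7075, of which 2408 were higher, with the median of all genes at −0.12 on the log2 scale against −0.019.

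MMP7 in Ctrl proximal tubule-like cells was 298 CPM, and 395 at a clustering resolution of 0.5, 307 without alignment, 226 with doublets left out and 285 with each library clustered alone. In the TNF library it was 181 CPM, and 227, 266 without alignment and 199 with each library alone. MMP9 in TNF podocyte-like cells was 47.5 CPM, 65.4 without alignment and 70.9 with each library alone, where 71.1% and 61.6% of TNF cells stayed unnamed. The podocyte-like class then held 1294 and 1155 TNF cells, against 4251 in the main clustering. MMP9 in bulk rests on 13 to 115 reads per library in set 2, which limits its precision.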
